A study of Homo sapiens with 8 samples.

Results

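NF-kB and inflammatory cytokine genes were followed in MDA231 cells that differ in the assembly state of mitochondrial complex II. The set holds 38 genes chosen by name for their role, with earlier results of these data known. It has 3 cytokines of the IL6 family (IL6, IL11 and LIF), 6 receptors and signalling genes of that family, 7 chemokines, 3 colony stimulating factors, 5 other cytokines, 8 NF-kB factors and regulators, 4 effectors induced by NF-kB and 2 other cytokine receptors. Of the 38 genes, 37 were matched by symbol to one of the 58051 gene IDs in the count files, and SOD2 was not analysed here. Of these 37 genes, 28 had a count in at least 1 sample, 16 were abundant enough to be tested among 7550 genes in all, and 9 had 0 counts in all 8 samples.

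MDA231 (MDA-MB-231) is an established human breast cancer cell line. Complex II (CII, succinate dehydrogenase) links the tricarboxylic acid cycle to the respiratory chain, SDHA is its catalytic flavoprotein and SDHB its iron-sulfur subunit. Parental cells (2 samples) were not modified and carry assembled CII. SDHBKO cells (3 samples) were made with a TALEN against exon 1 of SDHB and hygromycin selection, and keep SDHA in a smaller form that the study calls CIIlow. SDHBKOSDHAlow cells (3 samples) are SDHBKO cells that also carry an shRNA plasmid against SDHA under puromycin selection, and by the study's account hold little of either form. All cells were collected below confluence in full medium without cytokine or other stimulation. The labels number the samples as biological replicates without saying whether these were separate clones or cultures, whether the SDHBKO samples carried the empty vector, or which shRNA was used. P-values therefore measure only the spread between these samples, and the gene edit cannot be told apart from the selection and cloning that came with it. Parental, SDHBKO and SDHBKOSDHAlow samples are compared in 3 contrasts, each pair of which shares a group of samples.

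NF-kB is a family of dimeric transcription factors built from RELA, RELB, REL and the proteins made from NFKB1 and NFKB2. In resting cells inhibitors such as IkB alpha, the product of NFKBIA, hold the dimers in the cytoplasm, and signals from TNF, IL1 or Toll-like receptors release them to induce cytokines, chemokines and their own inhibitors. Cytokines of the IL6 family act through the shared receptor chain IL6ST and STAT3, which induces the feedback inhibitor SOCS3. In triple-negative breast cancer lines both pathways are known for driving secretion of IL6 and CXCL8, and IL11 is known for its part in metastasis to bone.

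The sequences just upstream of several listed genes carry κB motifs, the binding element of NF-kB. They are shown because the listed genes that carry this element had many, few or no counts. Genes that changed were found both with and without it. Promoter sequences, taken as the 250 bases before the RefSeq gene start (GRCh38.p14), were found for 30 of the 38 genes and not for LIF, CEBPD, CCL2, CCL5, CSF1, CSF3, IL18 and RELB. For several genes, NFKB1, CXCL3, IL6, CCL20 and IL4R among them, this window lay partly or wholly inside the GENCODE gene. The degenerate 10-base κB consensus, searched on both strands, was present in 13 of these 30 promoters (43.3%), in 14 of 71 promoters of the other pathway genes described at the end (19.7%) and in 3498 of all 35116 promoters (10%). The genes with a match were IL6, IL6ST, CXCL1, CXCL2, CXCL3, CCL20, IL32, NFKB1, NFKBIA, TNFAIP3, IRAK1, BIRC3 and IL4R. The AP-1 motif TGANTCA was present in the promoters of IL11, CXCL8 and IL1A (3 of 30, 10%, against 6.6% of all promoters). Among the 3 genes called in the tests given later, NFKB1 carried a κB match that began 49 bases before its start, IL11 carried an AP-1 match 96 bases before its start and no κB match, and MIF carried neither. NFKBIA, the best known feedback target of NF-kB, carried a κB match 81 bases before its start. The promoters of NFKB1 (chr4:102501109-102501358, plus strand), NFKBIA (chr14:35404750-35404999, minus strand) and IL11 (chr19:55370464-55370713, minus strand) are printed 5′ to 3′, with the κB or AP-1 match in capitals.
NFKB1: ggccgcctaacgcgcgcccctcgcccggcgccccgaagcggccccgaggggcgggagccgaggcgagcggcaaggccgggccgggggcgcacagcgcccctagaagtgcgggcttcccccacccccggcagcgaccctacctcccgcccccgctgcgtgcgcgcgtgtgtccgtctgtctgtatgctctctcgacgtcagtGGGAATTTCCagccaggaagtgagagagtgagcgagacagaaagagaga
NFKBIA: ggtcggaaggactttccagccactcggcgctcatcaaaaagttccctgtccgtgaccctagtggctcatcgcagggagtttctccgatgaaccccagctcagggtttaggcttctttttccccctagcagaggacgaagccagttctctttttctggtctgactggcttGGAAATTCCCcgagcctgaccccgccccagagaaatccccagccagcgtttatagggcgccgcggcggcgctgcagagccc
IL11: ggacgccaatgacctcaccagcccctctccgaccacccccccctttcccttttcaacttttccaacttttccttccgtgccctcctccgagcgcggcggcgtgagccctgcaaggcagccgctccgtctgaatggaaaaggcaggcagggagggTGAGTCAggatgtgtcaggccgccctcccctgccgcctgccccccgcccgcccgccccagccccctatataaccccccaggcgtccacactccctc
The promoters of CXCL1, CXCL2 and CXCL3 carry the same κB element at nearly the same place. The stretch from 100 to 41 bases before the start is printed for CXCL1 (chr4:73869293-73869352, plus strand), CXCL2 (chr4:74099236-74099295, minus strand), CXCL3 (chr4:74038730-74038789, minus strand) and IL6 (chr7:22727100-22727159, plus strand), with the κB match in capitals. In the 3 CXCL genes the capitals are 2 matches that overlap by all but 1 base at each end.
CXCL1: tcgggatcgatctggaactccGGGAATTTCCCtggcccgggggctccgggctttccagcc
CXCL2: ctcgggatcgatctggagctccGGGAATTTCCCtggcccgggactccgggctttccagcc
CXCL3: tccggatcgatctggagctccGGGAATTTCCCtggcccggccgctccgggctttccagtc
IL6: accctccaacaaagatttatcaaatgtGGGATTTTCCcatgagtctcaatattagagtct
A match is a description of the letters in this window and does not show that a factor was bound in these cells. The lack of a match means only that this pattern was absent from these 250 bases.

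The 3′ end sequencing gave 773042 to 1427141 reads counted on genes per sample (median 853763.5). Values are given as normalized CPM (reads of a gene scaled to a common library total), and 3 counts, the number that a count of 0 still allows, correspond to 2.24 to 4.10 CPM depending on the sample. Reads mapping to several places made up 14.5% to 16.1% of reads in SDHBKO samples and 9.7% to 12.3% in the other 5 samples, and the part of this in the results was not tested. SDHA was at 74.0 and 91.6 CPM in parental cells, 148, 135 and 151 CPM in SDHBKO cells and 8.45, 12.7 and 17.8 CPM in SDHBKOSDHAlow cells, with no overlap. The log2 fold change of SDHA in SDHBKOSDHAlow against SDHBKO cells was -3.46 (standard error 0.28, edgeR adjusted p = 1.2e-07), as the knockdown label says. SDHA has near-identical copies in the genome, and reads that fit several of them are not in its count. SDHB had at most 4 counts in any sample (4 and 3 in parental cells), too few to check the knockout label. All 6 markers of MDA-MB-231 cells were detected (VIM, CD44, MSN, CAV1, ANXA1 and S100A4), though ANXA1 had only 21 counts in total. Their summed level was 1800 to 1890 CPM in parental, 1840 to 2370 CPM in SDHBKO and 2520 to 2820 CPM in SDHBKOSDHAlow cells, a difference whose part in the results was not tested either. Of 6 epithelial or luminal genes taken to be low in this line, ESR1 and ESRP1 were at 0 counts in all samples. CDH1 and EPCAM had 11 and 1 counts in total. The other genes of this list were present, with GATA3 at 8.91 to 22.2 CPM and KRT19 at 83.4 to 147 CPM. Of other cells that could supply cytokine RNA, 5 of 6 leukocyte markers, 4 of 6 fibroblast markers and 3 of 4 endothelial markers were at 0 counts in all samples, and their summed levels reached at most 4.48, 8.10 and 2.74 CPM. In bulk samples such as these, fewer cells that express a gene and less RNA per cell cannot be told apart.

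Many of the listed secreted factors were not detected. IL6, CXCL8, CXCL1, CXCL2, CCL20, CSF2, CSF3, IL1A and IL1B were at 0 counts in all 8 samples. These 9 genes encode the main pro-inflammatory interleukins, neutrophil-attracting and dendritic-cell-attracting chemokines and granulocyte growth factors. Their level lay below 2.24 to 4.10 CPM in each sample, which is a limit for counting error only. The last 300 bases of IL6, CXCL8, CXCL1, CXCL2, CCL20, IL1A and IL1B held 22.0% to 32.67% GC, those of CSF2 and CSF3 38.33% and 57.0%. Of all coding genes below 35% GC there, 28.2% reached 40 counts in total and 33.8% were at 0. In the ranges of higher GC 38.1% to 43.2% reached 40 counts and 36.6% to 42.3% were at 0. The part of GC content in these zeros was not tested. Of the 8 of these genes with a promoter sequence, 4 carried a κB match (IL6, CXCL1, CXCL2 and CCL20). CXCL1, CXCL2 and CXCL3 are close paralogs, and reads that map equally well to more than 1 of them are not in the counts. CXCL3 had 1 count in each of SDHBKO replicates 2 and 3 and SDHBKOSDHAlow replicates 2 and 3, and 0 in the others.

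A further 12 genes had counts but were too low to be tested, with totals of 1 to 36 counts over the 8 samples. LIF, a cytokine of the IL6 family, had 6 and 3 counts in parental, 4, 4 and 3 in SDHBKO and 0, 9 and 2 in SDHBKOSDHAlow cells. The shared receptor chain IL6ST had 12 and 2 counts in parental, 0, 1 and 2 in SDHBKO and 0, 2 and 0 in SDHBKOSDHAlow cells. The oncostatin M receptor OSMR had 12 and 3 counts in parental cells and 1 to 6 in the others, and the LIF receptor LIFR had 4 and 0 in parental cells and 0 to 2 in the others. For IL6ST the parental samples were at 13.9 and 2.65 CPM and the modified cells at 0 to 2.16 CPM. Parental replicate 2 had the same 2 counts as SDHBKO replicate 3 and SDHBKOSDHAlow replicate 2, so only parental replicate 1 stood apart by counts. OSMR was at 13.9 and 3.98 CPM and LIFR at 4.63 and 0 CPM in parental cells, with parental replicate 1 above and parental replicate 2 within the range of the modified cells. IL18, an interferon-gamma inducing cytokine, had 2 and 3 counts in parental, 6, 3 and 2 in SDHBKO and 4, 7 and 1 in SDHBKOSDHAlow cells, so that all 3 groups overlapped. TNFAIP3, the deubiquitinase A20 that ends NF-kB signalling, had at most 3 counts in any sample. CCL5, IL32, BIRC3, ICAM1 and PTGS2 (the cyclooxygenase COX-2) had at most 2. ICAM1 had 1 count in SDHBKO replicate 3 and 0 in the other samples. The map of counts shows genes with many and with few or no counts in most of the roles.

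**Figure D1:**
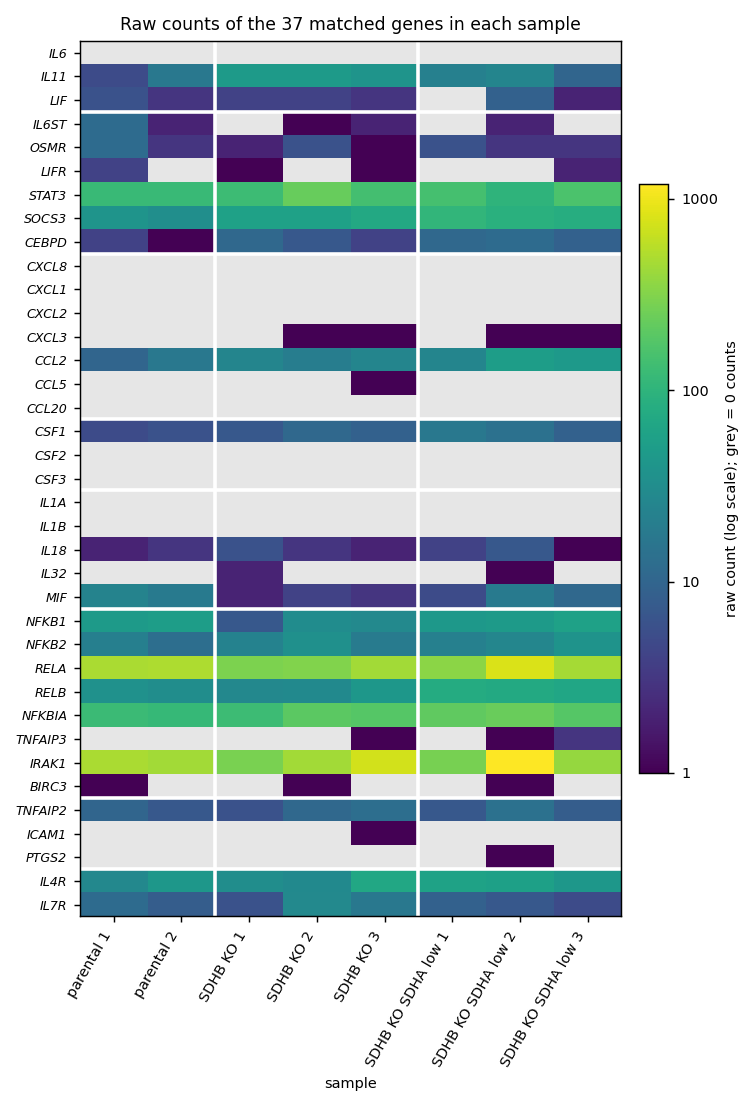
Raw count of each of the 37 matched genes (rows, in blocks by role) in each of the 8 samples (columns, in blocks by group), with colour on a log scale and grey for 0 counts. RELA, IRAK1, NFKBIA and STAT3 had the highest raw counts, which are not scaled by length, and IL6, CXCL8, CXCL1, CXCL2, CCL20, CSF2, CSF3, IL1A and IL1B were grey in every sample.

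Of the 3 IL6-family cytokines, IL11 alone had enough counts to be tested, and it rose with the loss of SDHB and fell again when SDHA was also depleted. IL11 (ENSG00000095752, chr19:55364382-55370463, minus strand, GRCh38) was at 5.78 and 22.6 CPM in parental cells, 64.3, 53.4 and 42.1 CPM in SDHBKO cells and 26.6, 18.7 and 11.1 CPM in SDHBKOSDHAlow cells. All 3 SDHBKO samples lay above the other 5, whereas parental and SDHBKOSDHAlow cells overlapped. In SDHBKO against parental cells the log2 fold change was 1.93 (standard error 0.48, 95% interval 0.93 to 2.92, adjusted p = 0.035 by the quasi-likelihood test of edgeR with Benjamini-Hochberg adjustment), or 3.81-fold. In SDHBKOSDHAlow against SDHBKO cells it was -1.50 (standard error 0.39, interval -2.30 to -0.69, edgeR adjusted p = 0.075), and against parental cells 0.43 (interval -0.63 to 1.49, adjusted p = 0.78). The parental samples differed widely, with 5 and 17 counts, and the change against them was 1.23 without parental replicate 1 (adjusted p = 0.51) and 3.17 without parental replicate 2 (adjusted p = 0.052). Without SDHBKO replicate 1 it was 1.78 (adjusted p = 0.14). The fall in SDHBKOSDHAlow cells was not called without SDHBKOSDHAlow replicate 3 or any 1 of the 3 SDHBKO samples, nor with the replicate number as a block, where its adjusted p was 0.12 to 0.31. The promoter printed above for IL11 is the one with the AP-1 and no κB match.

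Downstream of the IL6 family, no gene passed the test. STAT3, the transcription factor activated by this family, was at 139 and 163 CPM in parental, 177, 252 and 154 CPM in SDHBKO and 177, 74.6 and 177 CPM in SDHBKOSDHAlow cells, with all groups overlapping. Its log2 fold change was 0.37 in SDHBKO against parental cells (interval -0.28 to 1.01, edgeR adjusted p = 0.58) and -0.46 in SDHBKOSDHAlow against SDHBKO cells (interval -1.03 to 0.11, edgeR adjusted p = 0.53). SOCS3, the inhibitor induced by STAT3, was at 45.1 and 43.8 CPM in parental, 79.4, 63.4 and 76.6 CPM in SDHBKO and 127, 66.4 and 92.5 CPM in SDHBKOSDHAlow cells. All 6 modified samples lay above both parental samples, and the modified groups overlapped. SOCS3 had a log2 fold change of 0.71 in SDHBKO (standard error 0.31, edgeR adjusted p = 0.22) and 1.08 in SDHBKOSDHAlow cells (standard error 0.30, interval 0.45 to 1.71, edgeR adjusted p = 0.13), each against parental cells. The latter passed the threshold with no filter on low counts (adjusted p = 0.072), with a correction for GC content (0.095) and without SDHBKOSDHAlow replicate 2 (0.026). CEBPD, a transcription factor of the acute phase response, averaged 2.98 ± 2.33 CPM (SD, n = 2) in parental, 9.05 ± 5.48 CPM (SD, n = 3) in SDHBKO and 10.8 ± 2.25 CPM (SD, n = 3) in SDHBKOSDHAlow cells, with 4 counts in parental replicate 1 and 1 count in parental replicate 2 and no adjusted p below 0.34.

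Among chemokines and colony stimulating factors, only CCL2 and CSF1, which recruit and sustain monocytes and macrophages, were tested, and neither passed. CCL2 was at 11.6 and 22.6 CPM in parental, 34.2, 22.2 and 27.0 CPM in SDHBKO and 30.2, 38.8 and 51.3 CPM in SDHBKOSDHAlow cells. SDHBKOSDHAlow cells lay above both parental samples, while SDHBKO cells overlapped with each of the other groups. The log2 fold change of CCL2 in SDHBKOSDHAlow against parental cells was 1.24 (standard error 0.41, interval 0.39 to 2.1, edgeR adjusted p = 0.20), and in SDHBKO against parental cells 0.71 (interval -0.18 to 1.59, adjusted p = 0.41). CSF1 was at 5.78 and 7.96 CPM in parental, 9.58, 12.2 and 9.71 CPM in SDHBKO and 20.5, 10.4 and 10 CPM in SDHBKOSDHAlow cells. Both modified groups lay above the parental samples, by log2 fold changes of 0.62 (interval -0.65 to 1.88, edgeR adjusted p = 0.65) and 0.96 (interval -0.27 to 2.19, edgeR adjusted p = 0.54).

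MIF, a cytokine that restrains macrophage migration and is stored preformed in many cells, fell in SDHBKO cells. MIF (ENSG00000240972, chr22:23894383-23895227, plus strand) was at 27.8 and 23.9 CPM in parental cells, 2.74, 4.45 and 3.24 CPM in SDHBKO cells and 6.03, 13.4 and 12.3 CPM in SDHBKOSDHAlow cells. The 3 groups did not overlap, with parental cells highest and SDHBKO cells lowest. The log2 fold change was -2.83 in SDHBKO against parental cells (standard error 0.57, interval -4.02 to -1.65, edgeR adjusted p = 0.012), 7.13-fold lower. It was 1.59 in SDHBKOSDHAlow against SDHBKO cells (interval 0.40 to 2.77, edgeR adjusted p = 0.25) and -1.25 against parental cells (interval -2.25 to -0.25, edgeR adjusted p = 0.28). The SDHBKO samples held only 2, 4 and 3 counts, and without parental replicate 1 the fall was not called (log2 fold change -2.72, adjusted p = 0.28). The end of MIF is also covered by an exon of another annotated gene on the same strand, and reads that fit both genes are not counted for either, so that the MIF count covers only part of its reads.

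**Figure D2:**
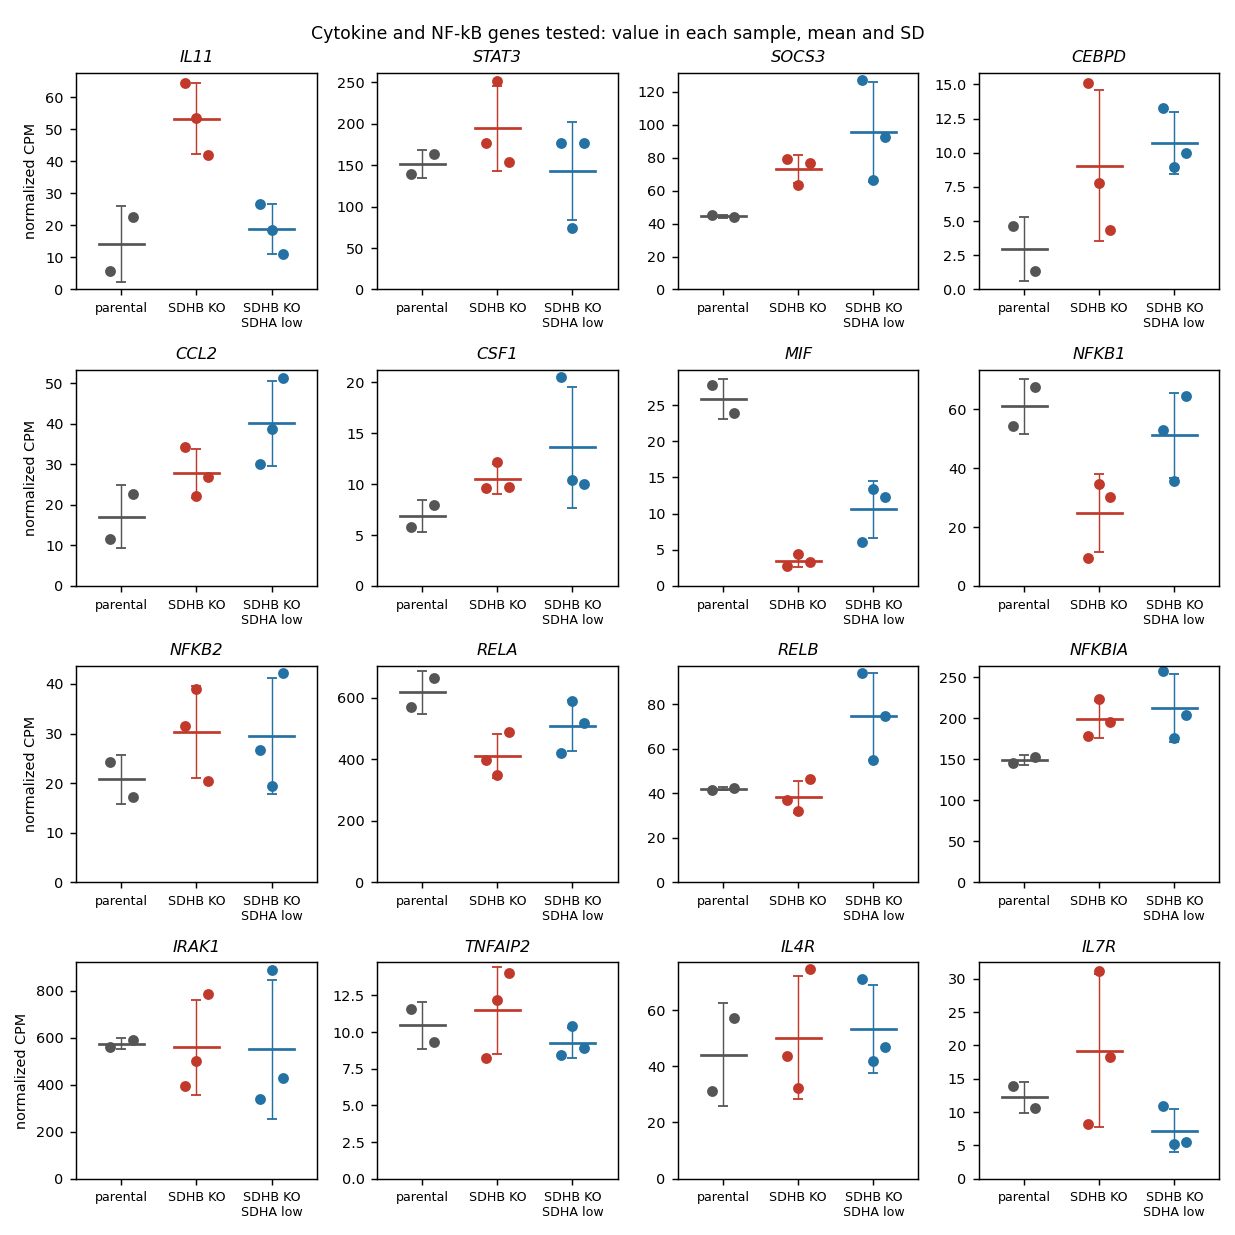
Normalized CPM (vertical axes, starting at 0 and scaled for each gene) of the 16 tested genes in parental (grey), SDHBKO (red) and SDHBKOSDHAlow (blue) samples, with each point a sample, the horizontal line the group mean and the bar the SD. For IL11 all 3 SDHBKO samples were above the other 5, for MIF they were below, and for NFKB1 they lay at 9.58 to 34.5 CPM against 35.8 to 67.7 CPM in the other 5.

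Of the NF-kB subunits, NFKB1 fell in SDHBKO cells. NFKB1 (ENSG00000109320, chr4:102501330-102617302, plus strand), which encodes the p105 precursor of the p50 subunit, was at 54.4 and 67.7 CPM in parental cells, 9.58, 34.5 and 30.2 CPM in SDHBKO cells and 53.1, 35.8 and 64.6 CPM in SDHBKOSDHAlow cells. All SDHBKO samples were below the other 5, by a narrow gap between SDHBKO replicate 2 (34.5 CPM) and SDHBKOSDHAlow replicate 2 (35.8 CPM). In SDHBKO against parental cells the log2 fold change was -1.26 (standard error 0.39, interval -2.07 to -0.45, edgeR adjusted p = 0.088), 2.4-fold lower. In SDHBKOSDHAlow against SDHBKO cells it was 1.00 (interval 0.25 to 1.74, edgeR adjusted p = 0.25), and against parental cells -0.27 (interval -1.03 to 0.50, edgeR adjusted p = 0.82). The fall in SDHBKO cells was not called without parental replicate 1 (adjusted p = 0.44), parental replicate 2 (0.37), SDHBKO replicate 1 (log2 fold change -0.91, 0.25) or SDHBKO replicate 3 (0.15).

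RELA, the main transactivating subunit of the classical pathway, was not called in any comparison. RELA was at 568 and 665 CPM in parental, 398, 347 and 487 CPM in SDHBKO and 421, 588 and 518 CPM in SDHBKOSDHAlow cells. SDHBKO samples lay below both parental samples, and SDHBKOSDHAlow cells overlapped with both groups. In SDHBKO against parental cells RELA had a log2 fold change of -0.59 (standard error 0.22, interval -1.03 to -0.14, edgeR adjusted p = 0.15). It passed the threshold with DESeq2 (adjusted p = 0.095), in a fit of only the 2 groups (0.073), with the GC correction (0.045) and without SDHBKOSDHAlow replicate 2 (0.058).

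RELB and NFKB2 encode the subunits of the alternative NF-kB pathway, and neither was called. RELB averaged 42.1 ± 0.587 CPM (SD, n = 2) in parental, 38.5 ± 7.21 CPM (SD, n = 3) in SDHBKO and 74.7 ± 19.5 CPM (SD, n = 3) in SDHBKOSDHAlow cells. All 3 SDHBKOSDHAlow samples lay above the other 5, with a log2 fold change of 0.94 against SDHBKO (interval 0.36 to 1.51, edgeR adjusted p = 0.14) and 0.81 against parental cells (interval 0.17 to 1.46, edgeR adjusted p = 0.28). The difference from SDHBKO cells passed the threshold with the GC correction (adjusted p = 0.087) and without SDHBKOSDHAlow replicate 2 (0.026). NFKB2, its usual partner, averaged 20.8 ± 4.98, 30.3 ± 9.26 and 29.4 ± 11.7 CPM in parental, SDHBKO and SDHBKOSDHAlow cells (SD, n = 2, 3 and 3), with overlapping groups and no adjusted p below 0.57.

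The regulators and effectors of NF-kB showed no called change. NFKBIA averaged 149 ± 5.69 CPM in parental, 199 ± 22.9 CPM in SDHBKO and 213 ± 41.8 CPM in SDHBKOSDHAlow cells, with all 6 modified samples above both parental samples. Its log2 fold change was 0.42 in SDHBKO (interval -0.06 to 0.91, edgeR adjusted p = 0.36) and 0.51 in SDHBKOSDHAlow cells (interval 0.03 to 1.00, edgeR adjusted p = 0.37), each against parental cells. IRAK1, the kinase that carries signals from IL1 and Toll-like receptors, was at 560 and 591 CPM in parental, 395, 499 and 785 CPM in SDHBKO and 338, 889 and 428 CPM in SDHBKOSDHAlow cells. The modified samples spanned the parental values on both sides, and the log2 fold changes of IRAK1 were between -0.05 and -0.02 in the 3 comparisons. TNFAIP2, an effector induced by TNF, was at 11.6 and 9.29 CPM in parental, 8.21, 12.2 and 14 CPM in SDHBKO and 8.45, 10.4 and 8.91 CPM in SDHBKOSDHAlow cells, with overlapping groups and no adjusted p below 0.84.

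The other cytokine receptors were detected without a called change. IL4R, the shared receptor chain of IL4 and IL13, was at 31.2 and 57.1 CPM in parental, 43.8, 32.2 and 74.5 CPM in SDHBKO and 71.2, 41.8 and 46.8 CPM in SDHBKOSDHAlow cells, with all groups overlapping. IL7R, the alpha chain of the receptors of IL7 and TSLP, was at 13.9 and 10.6 CPM in parental, 8.21, 31.1 and 18.3 CPM in SDHBKO and 10.9, 5.22 and 5.57 CPM in SDHBKOSDHAlow cells. The log2 fold change of IL7R in SDHBKOSDHAlow against SDHBKO cells was -1.46 (standard error 0.52, interval -2.55 to -0.38, edgeR adjusted p = 0.25), and the 2 groups overlapped at SDHBKO replicate 1.

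**Figure D3:**
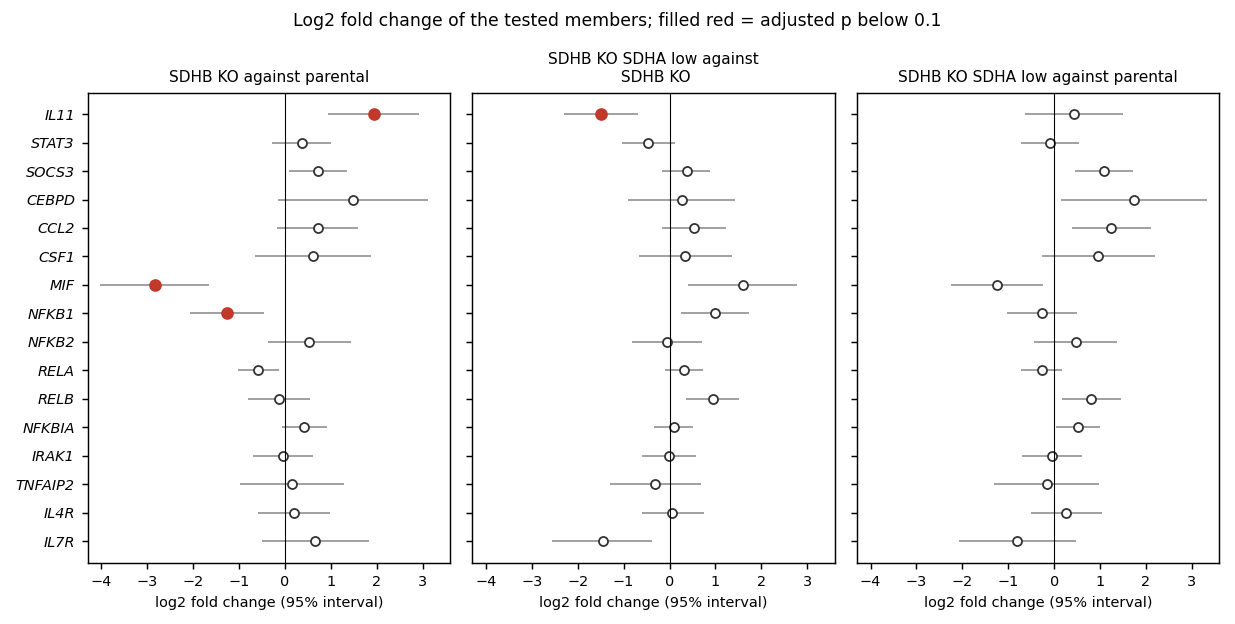
Log2 fold change (horizontal axis) with its 95% interval for the 16 tested genes in the 3 comparisons, with filled red points for genes at an edgeR adjusted p below 0.1. IL11, MIF and NFKB1 were called in SDHBKO against parental cells, IL11 in SDHBKOSDHAlow against SDHBKO cells, and no gene in SDHBKOSDHAlow against parental cells.

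Across the 16 tested genes, SDHBKO against parental cells gave 3 calls, 1 higher (IL11) and 2 lower (MIF and NFKB1). Over all 7550 genes 5.54% were called in this comparison, 3.14% higher and 2.4% lower. The groups did not overlap for 4 genes that were higher (IL11, SOCS3, CSF1 and NFKBIA) and 3 that were lower in SDHBKO cells (MIF, NFKB1 and RELA), 7 of 16, against 37.9% of all genes, a share near to that of the list. The median log2 fold change was 0.40 (range -2.83 to 1.93, 11 positive and 5 negative) and 0.00 over all genes.

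In SDHBKOSDHAlow against SDHBKO cells, which share SDHBKO samples with the first comparison, IL11 was the 1 gene called, and it was lower. Over all genes 1.51% were called, 0.318% higher and 1.19% lower. The groups did not overlap for MIF, NFKB1 and RELB, which were higher, and IL11, which was lower, 4 of 16 against 17.4% of all genes. The median log2 fold change of the 16 genes was 0.18 (range -1.50 to 1.59) and 0.01 over all genes.

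In SDHBKOSDHAlow against parental cells 0 of the 16 genes were called by edgeR and 0 by DESeq2, and 6 had an unadjusted edgeR p below 0.05: SOCS3, CEBPD, CCL2, MIF, RELB and NFKBIA. The share of all genes below this unadjusted p was 12.3%. In SDHBKO against parental cells 5 of the 16 genes and 17.5% of all genes lay below it, and in SDHBKOSDHAlow against SDHBKO cells 5 of 16 and 12.1%. Over all genes 0.914% were called, 0.225% higher and 0.689% lower. SOCS3, CEBPD, CCL2, CSF1, RELB and NFKBIA were higher and MIF was lower in all SDHBKOSDHAlow samples than in both parental samples, 7 of 16, where 30.7% of all genes did not overlap. The median log2 fold change of the 16 genes was 0.35 (range -1.25 to 1.75) and 0.02 over all genes.

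The rest of the NF-kB, TNF, IL1 and IL6-family pathway was followed in a list of 85 further genes (receptors and adaptors, kinases and ubiquitin ligases, other inhibitors and subunits, other NF-kB targets, and JAK-STAT genes). Of these, 42 were tested and 14 were at 0 counts in all samples, TNF, LTB, CXCL10, VCAM1 and TLR2 among them. In SDHBKO against parental cells 2 of 42 passed (4.76%, against 5.54% of all genes), both higher, and the median log2 fold change of the list was 0.12. IER3, an early response gene and NF-kB target, was at 1080 and 1120 CPM in parental, 3510, 2300 and 2660 CPM in SDHBKO and 1690, 2350 and 1230 CPM in SDHBKOSDHAlow cells. Its log2 fold change was 1.36 in SDHBKO against parental cells (standard error 0.25, interval 0.84 to 1.89, edgeR adjusted p = 0.0082). All modified samples exceeded the parental ones, and SDHBKOSDHAlow replicate 2 reached into the SDHBKO range. STAT6, the transcription factor of IL4 and IL13 signalling, was at 56.7 and 61.1 CPM in parental, 134, 117 and 127 CPM in SDHBKO and 50.7, 73.1 and 49.0 CPM in SDHBKOSDHAlow cells. SDHBKO samples stood above all others, with a log2 fold change of 1.10 against parental cells (standard error 0.27, edgeR adjusted p = 0.034) and of -1.11 for SDHBKOSDHAlow against SDHBKO cells (standard error 0.23, edgeR adjusted p = 0.021). With 1 sample left out some of these calls were lost while the fold changes stayed close. STAT6 in SDHBKO against parental cells was then at 1.05 without SDHBKO replicate 1 (edgeR adjusted p = 0.13), 1.04 without parental replicate 1 (0.45) and 1.15 without parental replicate 2 (0.19). In SDHBKOSDHAlow against SDHBKO cells STAT6 was at -1.06 without SDHBKO replicate 1 (edgeR adjusted p = 0.10) and -1.01 without SDHBKOSDHAlow replicate 3 (0.13). IER3 was at 1.33 without parental replicate 1 (edgeR adjusted p = 0.28) and 1.39 without parental replicate 2 (0.11).

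In SDHBKOSDHAlow against SDHBKO cells 2 of the 42 pathway genes passed (4.76%, against 1.51% of all genes), both lower, and the median log2 fold change of the list was -0.15. Beside STAT6 this was RBCK1 (HOIL-1), a component of the linear ubiquitin ligase that acts at the TNF receptor. RBCK1 was at 229 and 296 CPM in parental, 416, 329 and 466 CPM in SDHBKO and 156, 191 and 160 CPM in SDHBKOSDHAlow cells, with no overlap between the 3 groups. Its log2 fold change was -1.25 against SDHBKO cells (standard error 0.20, interval -1.67 to -0.83, edgeR adjusted p = 0.0035). In SDHBKOSDHAlow against parental cells 0 of 42 passed in edgeR and in DESeq2, 3 had an unadjusted edgeR p below 0.05 (7.14%, against 12.3% of all genes), and the median log2 fold change was 0.00. In SDHBKO against parental and SDHBKOSDHAlow against SDHBKO cells 6 and 7 of the 42 lay below it (14.3% and 16.7%).

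**Figure D4:**
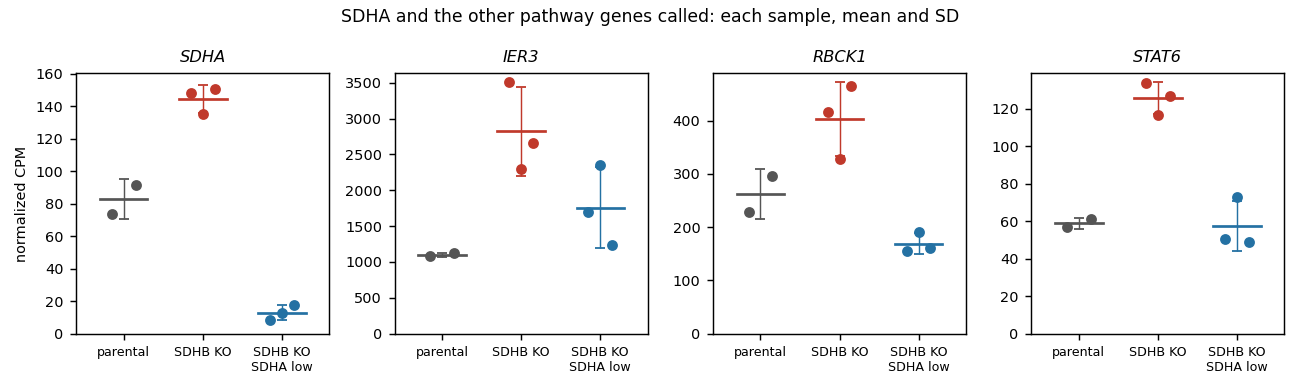
Normalized CPM (vertical axes, starting at 0) of SDHA and of the 3 pathway genes called in at least 1 comparison, IER3, RBCK1 and STAT6, in parental (grey), SDHBKO (red) and SDHBKOSDHAlow (blue) samples, with the group mean and SD. STAT6 was at 117 to 134 CPM in SDHBKO cells against 49.0 to 73.1 CPM in the other 5 samples, and RBCK1 was lowest in SDHBKOSDHAlow cells.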

How the data were processed

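RNA of 2 parental, 3 SDHBKO and 3 SDHBKOSDHAlow samples was sequenced from the 3′ end. The authors trimmed reads with Trimmomatic, removed ribosomal reads, aligned to GRCh38 and counted with STAR 2.5.2b. The raw counts they deposited entered all tests. The deposited normalized counts (a signal, counts divided by a factor per sample) served as a check: SDHBKO replicates 1 and 3 carry each other's number in the 2 kinds of file, which kind is misnumbered is not known, and the numbers of the raw counts were used for the replicate block and for leaving samples out. Reads without a gene (18.8% to 28.6%) were left out.

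Genes with a BaseMean above 5 (7550) were fitted with edgeR 4.0.16 (R 4.3.3, TMM, quasi-likelihood, 8 samples in 1 fit) and called at a Benjamini-Hochberg adjusted p below 0.1. The common biological coefficient of variation was 21.5%. Scripts were tested on simulated data. Gene positions came from GENCODE release 44 (GRCh38). The listed genes and lists were chosen with earlier results of these data known. All listed genes are named, with values per sample for those called and the 2 most abundant of each role. Deviations of samples with the same replicate number correlated at -0.27 to 0.093 over 7 pairs, and those with different numbers at -0.145 to 0.269. With 2 or 3 samples per group and the SDHBKO numbers in doubt, this cannot settle whether the numbers pair the samples. The fit above did not use the numbers. Counting error alone sets the floors given. Alternatives were DESeq2 1.42.0, its size factors, other filters, an adjusted p of 0.05, fits of 2 groups, a replicate block and each sample left out. A GC correction (last 300 bases) was chosen after seeing the data.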

Additional observations from a re-analysis of the deposited data

How the results depend on the processing

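Without 1 sample, the number of listed genes called ranged from 0 to 4 in SDHBKO against parental cells (0 without parental replicate 1, when 0 of all genes were called, and 1 without SDHBKO replicate 1), from 0 to 3 in SDHBKOSDHAlow against SDHBKO cells and from 0 to 1 in SDHBKOSDHAlow against parental cells. In SDHBKOSDHAlow against SDHBKO cells 0 were called with the replicate block and at an adjusted p below 0.05, and 2 with the GC correction. In SDHBKOSDHAlow against parental cells 1 was called (SOCS3) with no filter on low counts and 1 with the GC correction. The replicate block changed no other count of listed or pathway genes, and lowered the number of all genes called from 418 to 199, from 114 to 59 and from 69 to 12 in the 3 comparisons. Without SDHBKOSDHAlow replicate 2, the sample with the most reads counted, it rose to 833, 362 and 172. The calls that RELA, RELB, NFKB1 and SOCS3 gained in that fit came with this wider rise. In the sample left out, gene levels relative to their mean had a rank correlation with GC content of 0.182. It was -0.147 and -0.131 in SDHBKOSDHAlow replicates 1 and 3 and ranged from -0.211 to 0.232 over all 8 samples. The part of this trend in the rise was not tested. Of the pathway list, 4 were called in SDHBKO against parental cells with DESeq2 and with only the groups compared, and 0 to 4 without 1 sample, and 1 to 3 in SDHBKOSDHAlow against SDHBKO cells without 1 sample. With no filter, the median log2 fold change of the listed genes was -0.02 against SDHBKO and 0.14 against parental cells in SDHBKOSDHAlow cells, and the latter ranged from -0.04 (without parental replicate 1) to 0.43 without 1 sample. The log2 fold change of SDHA in SDHBKO against parental cells, 0.80 and not called, was called with DESeq2 (0.81), in the fit of only 2 groups (0.80) and in 2 of the fits without 1 sample, which ranged from 0.66 to 0.96. DESeq2 gave IL11 and MIF no adjusted p in SDHBKO against parental cells (unadjusted p from DESeq2 0.000625 and 0.000316). In that comparison DESeq2 called NFKB1 and RELA. Values without an adjusted p, those of IL11 and MIF among them, are not in the next count and not among its lost calls. Of 893 values of single genes under alternatives, 855 kept their side of the threshold, 21 lost a call and 17 gained one. The sign changed in 29 of the 893, all for uncalled log2 fold changes of at most 0.43 in size, such as that of IL11 in SDHBKOSDHAlow against parental cells (0.43, and -0.27 without parental replicate 1), and in 0 for called ones. The causes of the other changes were not tested. At these totals genes with a mean normalized count of 5 or less were not tested.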
